A study of Drosophila melanogaster with 3 samples.

Results

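In Drosophila melanogaster embryos, 2125 of the 8529 peaks of CG18262 tagged with green fluorescent protein (GFP) had their summit in an intron of a gene shorter than 50 kb. Chromatin immunoprecipitation followed by sequencing (ChIP-seq) recovers the DNA that a tagged protein contacts, and each peak is a region where that DNA piled up. The peaks came from the list the authors had thresholded on reproducibility between replicates with the IDR method (irreproducible discovery rate). A peak belonged to the set if its summit was more than 500 bp from every start site of a protein-coding gene, in no annotated exon, inside a protein-coding gene, and inside none of 50000 bp or longer. The rule used position and no measured value other than the authors' peak calls. The same rule found 2131, 2083 and 2153 peaks among the 8529 strongest peaks of replicates 1, 2 and 3.

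All 3 samples formed 1 group, so no conditions were compared. They were whole embryos of 0 to 16 h, of both sexes pooled, from a transgenic line that stably expressed CG18262 fused at its C-terminal end to eGFP, an enhanced form of GFP. The chromatin was recovered with an anti-GFP antibody. The promoter that drove the fusion protein is not given in the sources used here. The lists hold positions and a signal value per peak, in the authors' unit of unstated scale, so the read depth is unknown. The signal was compared only within 1 list, by rank and as ratios. Neither the control data nor embryos without the tag were analysed here, and how far open chromatin alone gives such peaks was not tested. In whole embryos, strong binding in few cells and weak binding in many cannot be told apart, and no RNA was measured that could check cell types.

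Introns of developmental genes in flies often hold enhancers, short stretches of DNA where transcription factors bind and raise or lower transcription from the promoter of the same or a neighbouring gene. First introns are usually the longest and lie near the start of transcription. CG18262 is the gene named as the target of this transcription factor ChIP-seq experiment, and its own gene (FBgn0030012, X, start 8152948, end 8154533, plus strand) held 0 bp of sequence that the rule could accept, and therefore 0 of the peaks.

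The sequences under the strongest of these peaks were rich in A and T. The 8 strongest that were matched in all 3 replicate lists are shown, leaving out those on an arm from which no sequence is printed, because they carry the base composition described later. Each is the plus strand of dm6 from RefSeq, 5′ to 3′, with 50 bp on each side of the summit, and runs of 6 or more A or T are in capitals. Their A+T content lay between 61.4% at CG9663 and 83.2% at Kdm2. The runs took up 65 of the 101 bases at Kdm2, 46 at Gug, 36 at CG11050 and 15 at CG9663.
CG11050, chr2L:6612659-6612759: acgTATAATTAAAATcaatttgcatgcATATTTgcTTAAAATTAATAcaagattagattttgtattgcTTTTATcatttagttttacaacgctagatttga
Trl, chr3L:14759471-14759571: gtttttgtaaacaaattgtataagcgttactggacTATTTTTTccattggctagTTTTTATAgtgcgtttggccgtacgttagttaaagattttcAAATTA
Kdm2, chr3R:9057501-9057601: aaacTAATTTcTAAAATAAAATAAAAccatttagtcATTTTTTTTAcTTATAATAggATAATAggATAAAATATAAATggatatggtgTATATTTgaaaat
CG32772, chrX:4910308-4910408: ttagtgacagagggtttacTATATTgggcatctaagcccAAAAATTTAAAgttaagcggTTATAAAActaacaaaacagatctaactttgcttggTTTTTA
Lk6, chr3R:11761000-11761100: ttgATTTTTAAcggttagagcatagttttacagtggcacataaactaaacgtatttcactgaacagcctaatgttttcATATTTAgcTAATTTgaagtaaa
simj, chr3L:10665690-10665790: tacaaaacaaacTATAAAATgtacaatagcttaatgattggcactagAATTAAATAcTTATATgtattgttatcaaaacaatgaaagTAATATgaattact
Gug, chr3L:8458281-8458381: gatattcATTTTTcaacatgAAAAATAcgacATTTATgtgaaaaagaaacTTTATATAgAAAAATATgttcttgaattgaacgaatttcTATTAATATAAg
CG9663, chr2L:3302144-3302244: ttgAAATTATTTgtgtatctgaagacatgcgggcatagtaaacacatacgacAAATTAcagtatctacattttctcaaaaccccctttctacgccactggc

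Further windows show the known elements whose share among the peaks was highest against other intron sequence, among elements held by at least 20 of the peaks. This choice did not allow for A+T content. Against intron sequence weighted to the A+T content of the peaks, the Mef2 element was not more frequent, with 1.46% against 1.59%. Each is the strongest matched peak that holds the element, with its letters in capitals, on the same strand and with the same width. The GATA element was searched as AGATAAG, the forkhead element as TGTTTAC and the Mef2 element as CTATTTNTA, on both strands. GATA factors direct blood, gut and epidermal fates, forkhead proteins act in the gut among other tissues, and Mef2 is the main muscle differentiation factor. The peaks with a GATA, a forkhead and a Mef2 element ranked 104, 14 and 1202 in the thresholded list. They lay in bmm, a triglyceride lipase gene, in Trl, and in sgl, a gene for an enzyme that makes UDP-glucuronate for proteoglycans.
bmm with a GATA element, chr3L:14784998-14785098: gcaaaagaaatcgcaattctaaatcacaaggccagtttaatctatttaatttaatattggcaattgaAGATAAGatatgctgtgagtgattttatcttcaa
Trl with a forkhead element, chr3L:14759471-14759571: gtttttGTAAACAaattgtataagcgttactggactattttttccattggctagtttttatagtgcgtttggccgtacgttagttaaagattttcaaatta
sgl with a Mef2 element, chr3L:6963883-6963983: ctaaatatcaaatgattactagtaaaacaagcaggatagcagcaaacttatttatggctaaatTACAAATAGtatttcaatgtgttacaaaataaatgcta

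The 25 strongest peaks that were matched within 100 bp in all 3 replicate lists lay in 23 genes, ranked between 5 and 126 of the thresholded list, and ranked between 5 and 169 in the replicate lists. The strongest was in CG11050 (FBgn0031836), on 2L with its summit at 6612709 in the second of 4 introns of the longest transcript that has an intron there, 1022 bp from the gene's nearest start. That intron is 140 bp long, so windows 300 bp away lay outside it. The signal of the matched peak was 2690 in replicate 1, 2647 in replicate 2 and 4139 in replicate 3. The values in replicate 3 were the highest for each of the 25 peaks, and they were not compared between lists because the scale may differ.

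**Figure D1:**
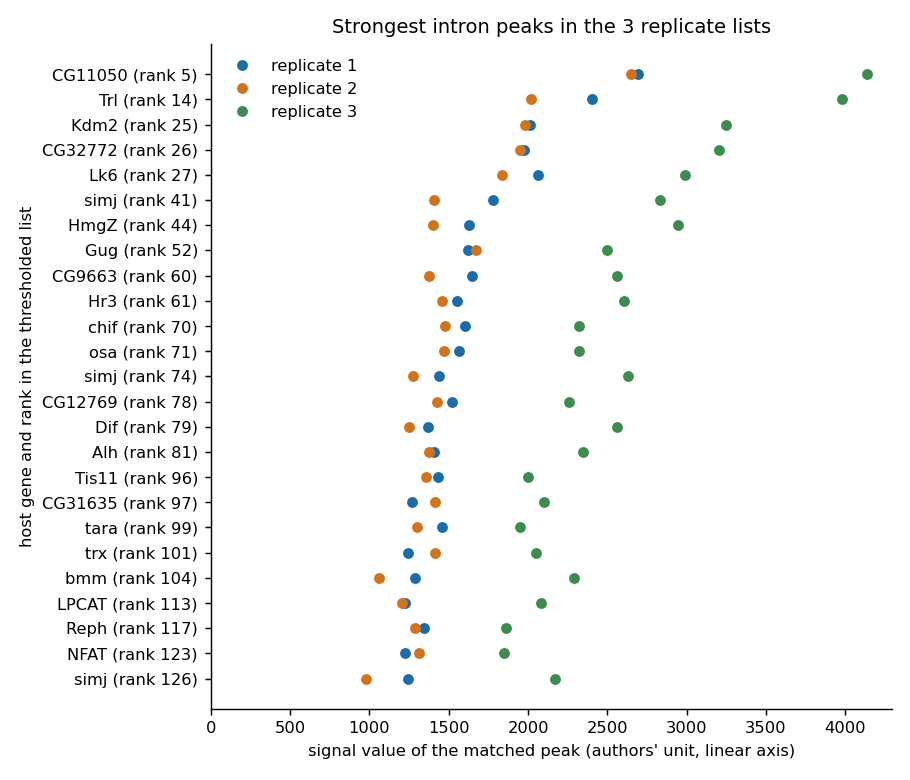
Signal value of the matched peak (horizontal axis, authors' unit, linear from 0) in each of the 3 replicate lists for the 25 strongest intron peaks matched in all 3, named by host gene and rank in the thresholded list. Points of the same colour are 1 replicate list; replicate 3 lies to the right of replicates 1 and 2 in each row, and CG11050 has the highest value in each list.

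Trl (FBgn0013263) encodes GAGA factor, which opens chromatin at GA-rich sites. Its strongest peak, on 3L at 14759521, lay 1528 bp from a start of the gene and had signal values of 2400, 2020 and 3980 in replicates 1, 2 and 3. Kdm2, a histone lysine demethylase, held a peak on 3R at 9057551 with values of 2011, 1981 and 3246. simj, a subunit of the NuRD nucleosome remodelling complex, held 3 of the 25, at ranks 41, 74 and 126. The strongest of them had values of 1781, 1408 and 2833. Gug, the Atrophin corepressor, ranked 52, osa, a subunit of the Brahma remodelling complex, ranked 71, and trx, the founding Trithorax group histone methyltransferase, ranked 101. Alh, related to the human AF10 protein, ranked 81.

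The peak at rank 44 lay 575 bp from a start of HmgZ, inside both HmgZ and HmgD, which encode high mobility group proteins. Hr3, a nuclear receptor of the ecdysone response, held the peak at rank 61, which also lay inside the annotated genes CG12912 and CG46321. Dif, an NF-kB factor of the immune response, ranked 79, and NFAT, a transcription factor, ranked 123. Lk6, a protein kinase that acts on the translation factor eIF4E, ranked 27, and Tis11, which promotes decay of mRNAs, ranked 96. tara, a regulator of transcription and sleep, ranked 99, bmm ranked 104 and LPCAT, a phospholipid acyltransferase, ranked 113. The peak at chif, the partner of the replication kinase Cdc7, ranked 70 and lay also inside Hyls1. The rest were in CG32772, CG9663, CG12769, CG31635 and Reph, at ranks 26, 60, 78, 97 and 117. Of the 25 peaks, 20 were in the first intron of some transcript, beside 73.8% of all 2125 peaks. The distances of the 25 from the nearest start of the host ranged from 575 to 18243 bp with a median of 1528 bp. The strongest peak on the small chromosome 4 was far weaker. It lay in Asator, a kinase gene, at rank 4463, with values of 123.1 in replicate 1 and 152.6 in replicate 2, and no match among the strongest peaks of replicate 3.

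Peaks were unevenly spread over host genes. Of the 8682 genes with sequence that the rule could accept, 1052 held at least 1 of the peaks, which is 12.1%. In the replicates the share was 12.1%, 12.4% and 12.4%. Of these hosts, 562 held 1 peak, 222 held 2, 98 held 3, 72 held 4 and 98 held 5 or more, and the last held 608 of the 2125 peaks. A peak counted for every gene it lay in, and 88 peaks lay inside more than 1. Hosts had more room, since their median eligible sequence was 8469 bp against 421.5 bp over all eligible genes.

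The host with most peaks was tna, a Trithorax group gene with a SUMO ligase-type zinc finger, which held 15 in the thresholded list, and 11, 10 and 16 in replicates 1, 2 and 3. tara held 14, and 11, 10 and 13 in the replicates. CHES-1-like, a forkhead factor, held 11, and 12, 10 and 10, in only 15058 bp of eligible sequence. raskol, a GTPase-activating protein for Ras, also held 11. brat, a translational repressor that limits neural stem cell growth, held 10, and 10, 11 and 12 in the replicates, as did Grip, a scaffold protein of muscle guidance, with 8 in each replicate. RhoGAP18B, crp, tou, Mnt, Src64B, Raf, gukh and mew held 9 each. crp is a helix-loop-helix factor, tou a chromatin remodelling protein, Mnt a repressor that opposes Myc, Src64B and Raf are kinases, and mew is an integrin subunit. Each of these 14 genes held at least 6 of the peaks in every replicate list, and 13 of them, all but tou, also had a peak within 500 bp of a start.

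The 14 peaks of tara all lay in the intron of 30338 bp of its longest transcript and ranked from 99 to 8485. Some neighbouring summits were close together. A tara peak at 16241461 on 3R, with rank 1137, had a neighbour at 16241674 with rank 7938. Of all 2125 peaks, 343 (16.1%, exact 95% interval 14.6 to 17.8) had a region that overlapped that of another peak, and 658 (31.0%, 29.0 to 33.0) had another summit within 1000 bp.

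Lists of developmental signalling genes held these peaks at shares from 30% to 66.7%, beside 12.1% of all eligible genes. The 23 gene lists were written from textbook membership, with earlier results of these data known, so their shares are descriptions with no test. Shares have exact 95% intervals that cover counting error only. Genes with long introns have more room for a peak. Of eligible genes with under 1000 bp of eligible intron 0.999% held a peak, and of those with 15000 bp or more 55.1%. Median eligible intron per gene lay between 1036.5 bp (Notch) and 10871 bp (EGFR) in the signalling lists, against 421.5 bp over all eligible genes. The 12.1% is thus not matched for length, and an excess over genes of similar length was not tested. The number of peaks per Mb of eligible intron is given beside each share, and it was 83.7 over all eligible genes. A peak in overlapping genes counts for each of them, and peaks of 1 gene are not independent, so the intervals per Mb are too narrow.

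In the list of EGFR, FGF and MAP kinase genes, 13 of 21 held a peak (61.9%, 38.4 to 81.9), with 226.5 peaks per Mb (171.5 to 293.4). The strongest were in edl, which encodes a partner of the pathway's Ets proteins that lacks an Ets domain, at rank 209, in Raf at rank 211 and in aop, the Ets repressor Yan, at rank 555. Raf held 9, aop 8 and the receptor gene Egfr 7 of the 57 peaks of this list. In the BMP list, 8 of 12 genes held a peak (66.7%, 34.9 to 90.1), at 215.0 per Mb (129.4 to 335.7). Dad, an inhibitory Smad, had 6 with the strongest at rank 276, Mad, the activating Smad, had 2 with the strongest at rank 350, and put, a receptor, had 1 at rank 1335. The secreted antagonist sog held 5 and the ligand gene dpp held 1. The share of the EGFR list was 66.7% in each replicate, and that of the BMP list was 58.3%, 58.3% and 66.7%.

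The other pathway lists had shares between 30% and 52.6%. In the Wnt and Hedgehog list 6 of 19 genes held a peak (31.6%, 12.6 to 56.6), at 142.0 per Mb, with the strongest in nkd, an inhibitor of Wnt signalling, in arr, a Wnt coreceptor, and in ptc, the Hedgehog receptor. The Notch list had 7 of 16 (43.8%, 19.8 to 70.1) at 110.1 per Mb, led by N, the receptor, at rank 352, by fng, which modifies it, and by neur, which acts on its ligands. The JAK/STAT list had 3 of 10 (30%, 6.67 to 65.2) and 8 peaks in all, at 223.5 per Mb (96.5 to 440.4), in ken, Stat92E and Socs36E, a repressor, the transcription factor and a feedback inhibitor. In the Hippo and polarity list 10 of 19 genes held a peak (52.6%, 28.9 to 75.6) at 185.4 per Mb. These were led by the upstream Hippo components kibra at rank 650 and ex at rank 813, and by crb, an apical polarity protein.

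In the Polycomb and Trithorax group list 11 of 28 genes held a peak (39.3%, 21.5 to 59.4), at 258.9 per Mb (182.3 to 356.8), and at 242.6 ± 28.3 per Mb in the replicates (SD, n = 3). The strongest were in Trl, osa and trx, and 15 of the 37 peaks lay in tna. Of the architectural and GAGA-binding proteins, 2 of 18 genes (11.1%, 1.38 to 34.7) held a peak, Trl and zld, which encodes Zelda, at 185.9 per Mb (50.6 to 475.9). Growth control and insulin genes had 8 of 24 (33.3%, 15.6 to 55.3) at 194.3 per Mb (129.1 to 280.8), led by Mnt at rank 359, which held 9 of the 28 peaks, by InR, the insulin receptor, and by REPTOR, a transcription factor downstream of TORC1. The ecdysone list had 4 of 11 (36.4%, 10.9 to 69.2), and 54.5%, 45.5% and 45.5% in the replicates, at 156.9 per Mb (91.4 to 251.3), led by Hr3, by ImpL2, a secreted insulin antagonist, and by Eip78C, a nuclear receptor. Cell cycle and replication genes had 3 of 26 (11.5%, 2.45 to 30.2), in CycE, E2f1 and Cdk4. Per Mb this list held 178.5 (92.2 to 311.8), above the level of all eligible genes, with 8 of its 12 peaks in E2f1. Metabolic genes had 10 of 32 (31.2%, 16.1 to 50.01) at 177.0 per Mb (101.1 to 287.4), with bmm, Zw, which encodes glucose-6-phosphate dehydrogenase, and kdn, the citrate synthase gene, at ranks 104, 568 and 661.

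Lists of tissues and of cell structure held between 64.7 and 145.7 peaks per Mb in the thresholded list. The list written for tracheal development had 8 of 14 (57.1%, 28.9 to 82.3) at 124.8 per Mb. Its strongest peaks were in grh, rib and sim, and sim was counted as listed, without a check of its role in the trachea. Adhesion genes had 6 of 20 (30%, 11.9 to 54.3) at 145.7 per Mb, led by the integrin gene mew, by rhea, which encodes talin, and by the integrin gene if. Cytoskeletal genes had 11 of 28 (39.3%, 21.5 to 59.4) at 91.5 per Mb, led by Dhc64C, a dynein chain, Moe, which links actin to the membrane, and jar, a myosin. Neural genes had 10 of 26 (38.5%, 20.2 to 59.4) at 75.2 per Mb, led by brat, zfh1 and Lim1. Axis and segmentation factors had 4 of 17 (23.5%, 6.81 to 49.9) at 82.6 per Mb, led by cad, wg and inv. Muscle and mesoderm factors had 9 of 24 (37.5%, 18.8 to 59.4) at 64.7 per Mb, led by zfh1, Mef2 and kn. The intervals per Mb were 76.2 to 192.8 for the tracheal list, 93.3 to 216.8 for adhesion and 55.1 to 143.0 for cytoskeletal genes. They were 48.2 to 112.0 for neural genes, 33.2 to 170.2 for axis and segmentation factors and 34.4 to 110.6 for muscle and mesoderm factors. Only that of the adhesion genes lay above the 83.7 of all eligible genes, and the others include it.

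Among lists of differentiated cells, the interval of the ion channel and synapse list lay under the 83.7 per Mb of all eligible genes, and the others include it. Muscle structure genes had 3 of 17 (17.6%, 3.80 to 43.4) at 37.1 per Mb (7.65 to 108.4), in Zasp66, tn and Tm1. Hemocyte and fat body genes had 5 of 18 (27.8%, 9.69 to 53.5) at 47.6 per Mb (15.5 to 111.2), led by LanA, lz and LanB1. Ion channel and synapse genes had 4 of 20 (20%, 5.73 to 43.7) at 25.1 per Mb (9.21 to 54.6), led by dlg1, unc-13 and Shal, and 30.7 ± 2.42 per Mb in the replicates (SD, n = 3). None of 42 cytosolic ribosomal protein genes (0% to 8.41%) or of 41 chemosensory receptor genes (0% to 8.60%) held 1. The introns of these lists are short, with a median eligible length of 271.5 and 184 bp per gene, so that their density could be as high as 297.2 and 283.8 per Mb.

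**Figure D2:**
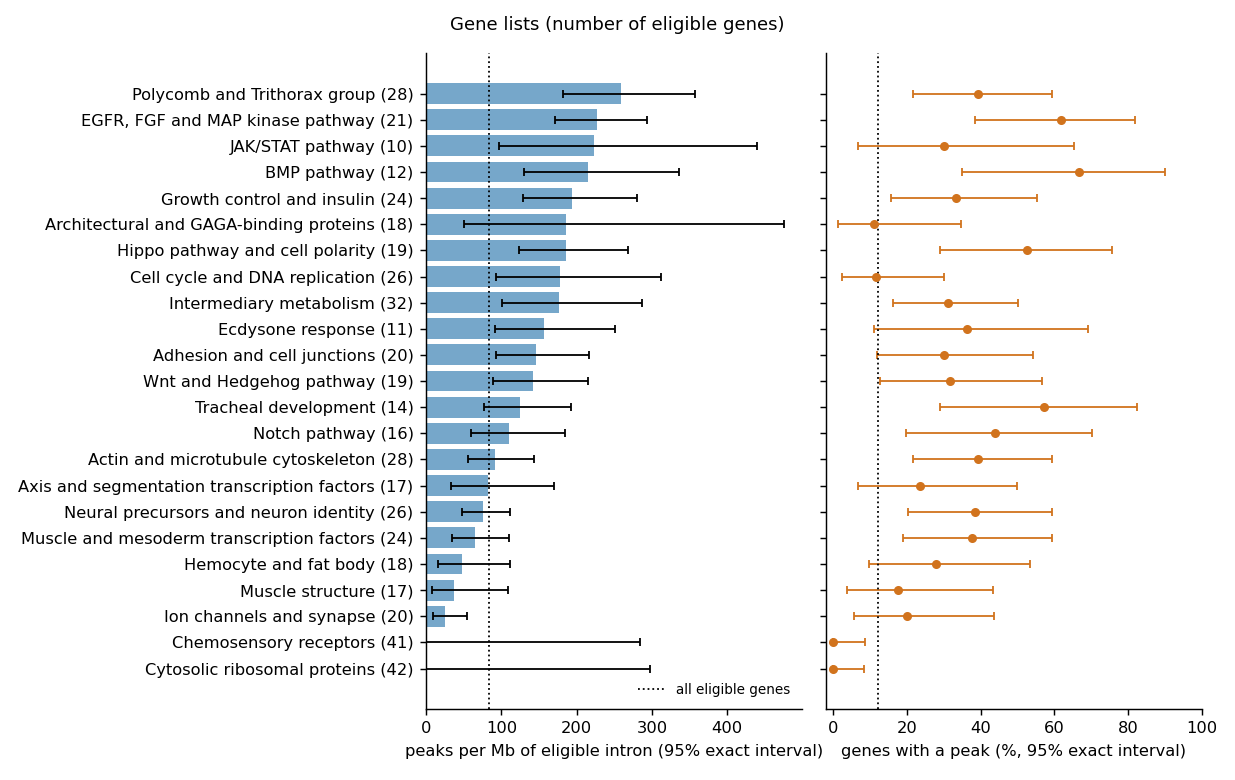
Left, intron peaks per Mb of eligible intron in each gene list with exact 95% Poisson intervals; right, share of the list's eligible genes that held a peak with exact 95% intervals. The number of eligible genes is in parentheses, and dotted lines mark 83.7 per Mb and 12.1% over all eligible genes; the Polycomb and Trithorax list is at the top with 258.9 per Mb.

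Hosts of intron peaks also had promoter peaks more often than other eligible genes. A peak within 500 bp of a start was present at 573 of the 1052 hosts (54.5%, 51.4 to 57.5) and at 2188 of the 7630 others (28.7%, 27.7 to 29.7), against 31.8% of all eligible genes. In the replicates the difference was 23.5 ± 5.09 percentage points (SD, n = 3), positive in 3 of 3 (exact sign-flip permutation p = 0.25). That is the smallest two-sided p that 3 replicate lists allow, so no result of this kind could reach 0.05 here. Among genes with 15000 bp or more of eligible intron the shares were 57.1% of 296 hosts and 14.5% of 241 others, and among those with under 1000 bp they were 37.5% of 56 and 29.0% of 5547. With promoters limited to 200 bp the difference was 10.3 percentage points, and for the 4264 strongest peaks it was 15.1.

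Where a gene had both kinds of peak, the intron peak was often as strong as the promoter peak. The strongest intron peak had the higher signal in 326 of the 573 genes of the thresholded list (56.9%, 52.7 to 61.0). The shares in replicates 1, 2 and 3 were 58.1%, 54.7% and 50.5%, with a mean of 54.4% ± 3.83 (SD, n = 3, exact sign-flip permutation p against 50% = 0.25). Hosts with several intron peaks had more chances in this comparison. Of the 23 hosts at the 25 strongest peaks, 17 had a promoter peak and each was weaker than the intron peak, which follows in part from their choice by signal. At Kdm2 the promoter peak ranked 7239 and the intron peak 25, and at trx they ranked 7368 and 101. Hr3, Dif, Tis11, HmgZ, CG32772 and CG12769 had no promoter peak in the thresholded list.

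The peaks concentrated in first introns and near starts. Eligible sequence is every base that passes the position rule, 25.5 Mb in all, and bases in the first intron of any transcript made up 52.3% of it. Of the 2125 summits, 1568 (73.8%, 71.9 to 75.6) lay in such a first intron. The density was 117.3 ± 3.86 peaks per Mb in first introns and 45.7 ± 1.29 in later introns over the replicates (SD, n = 3). The ratio was 2.60, 2.40 and 2.71 in replicates 1, 2 and 3, with a mean of 2.57 ± 0.156 (exact sign-flip permutation p = 0.25). Taking the first intron of the longest transcript alone gave 2.06.

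**Figure D3:**
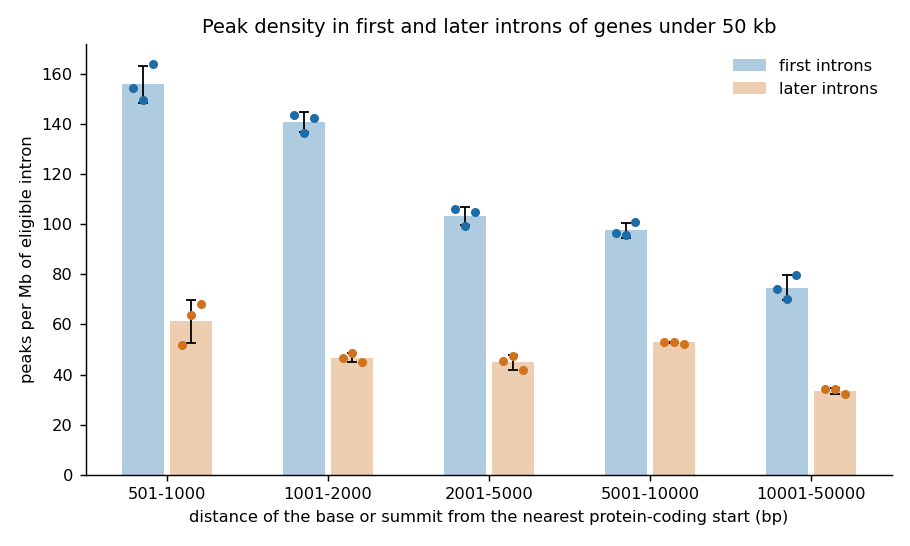
Peaks per Mb of eligible intron (vertical axis, from 0) by distance from the nearest protein-coding start, in first and later introns of genes under 50 kb. Bars are means over 3 replicate lists, error bars are SD and points are the lists; first introns lie above later introns in every bin.

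First introns held more than later introns in each of 5 ranges of distance from a start. Between 500 and 1000 bp from the nearest protein-coding start, first introns held 155.9 ± 7.26 peaks per Mb and later introns 61.3 ± 8.50. Beyond 10000 bp they held 74.7 ± 4.91 and 33.6 ± 1.23 (SD, n = 3 each). The mean ratio lay between 1.85 at 5000 to 10000 bp and 3.02 at 1000 to 2000 bp. First introns of genes of 50 kb or longer also held more than later ones, with a ratio of 2.16 ± 0.0522 (exact sign-flip permutation p = 0.25). The median distance of a summit from the nearest start was 2573 bp, with the middle 50% of the peaks between 1200 and 5740 bp and the farthest at 27323 bp. For 353 peaks (16.6%, 15.1 to 18.3) the nearest start belonged to a gene other than the named host.

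Density varied with the length of the intron and, counted separately, of the gene. Introns of at most 500 bp held 12.7 ± 0.959 peaks per Mb over the replicates (SD, n = 3), those of 500 to 2000 bp held 70.3 ± 2.01, those of 2000 to 5000 bp 94.8 ± 2.93, those of 5000 to 10000 bp 102.6 ± 2.25 and longer ones 91.3 ± 3.16, where a base in several introns was given to the shortest. In genes of up to 5000 bp the density was 61.3 ± 2.06, in genes of 5000 to 10000 bp it was 95.4 ± 1.44, in genes of 10000 to 20000 bp it was 100.1 ± 2.68, in genes of 20000 to 30000 bp it was 91.2 ± 1.69, and in genes of 30000 to 50000 bp it was 67.4 ± 2.47. In genes of 50 kb or longer, introns held 44.8 ± 0.651 per Mb, so that density in the shorter genes was 1.86 ± 0.0286 times that in the longer (exact sign-flip permutation p = 0.25). The median distance of a summit to the nearest exon edge of the intron was 1793 bp, and 102 (4.80%, 3.93 to 5.80) lay within 200 bp. The same distances were not measured over eligible sequence. The sequence within 500 bp of a start of a non-coding RNA gene held 142.6 ± 5.26 per Mb and the rest 82.7 ± 1.37 (exact sign-flip permutation p = 0.25), and 32 peaks lay there.

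Density differed between chromosome arms. It was highest on X, with 105.1 ± 4.30 peaks per Mb of eligible intron in the replicates, followed by 93.5 ± 1.75 on 3L, 79.0 ± 0.986 on 3R, 76.0 ± 2.60 on 2R and 71.4 ± 2.30 on 2L (SD, n = 3 each). The replicate values of 2R and 3R overlapped, and those of X lay above those of each other arm in all 3 lists. On chromosome 4 there were 5 peaks in 0.377 Mb (13.3 per Mb, exact 95% Poisson interval 4.31 to 30.9). The ratio of X to 3R was 1.33 ± 0.0423 (exact sign-flip permutation p = 0.25). The embryos were of both sexes and the control was not analysed here, so that the DNA content of X against the autosomes was not taken into account.

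The summits were A+T-rich and their surroundings were not. In the 101 bp around the summit, 69.1% of bases were A or T, compared with 55.9% in windows centred 300 bp to the lower-coordinate side, 55.8% to the higher-coordinate side and 60.2% in all 232230 eligible windows. The difference from the lower-coordinate flank was 11.2, 13.1 and 13.4 percentage points in replicates 1, 2 and 3, a mean of 12.6 ± 1.23 (exact sign-flip permutation p = 0.25). Of the windows at summits, 87.3% exceeded the mean of eligible windows. The contrast was larger at strong peaks. Summits of rank 1 to 1000 had 72.3% A+T and flanks of 54.7%, and those ranked after 4000 had 67.5% and 56.8%. Flanks can reach into exons, and exons within 300 bp of a summit were not left out.

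**Figure D4:**
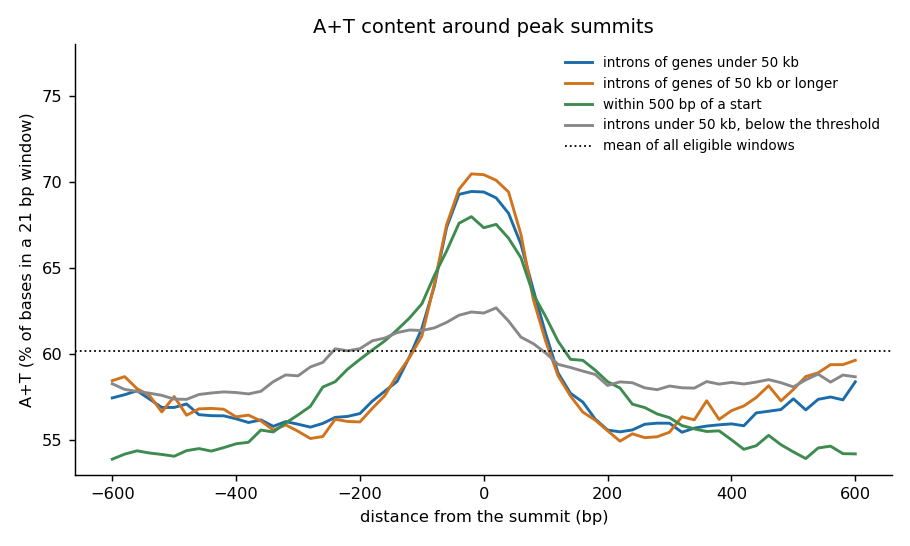
A+T content (vertical axis, percent of bases in windows of 21 bp, axis not from 0) by distance from the summit for intron peaks of genes under 50 kb, of genes of 50 kb or longer, peaks within 500 bp of a start, and pooled peaks below the threshold in the same introns. The line of the shorter genes rises to 69.4% at the summit and falls to about the level of its flanks 200 bp away; the dotted line is the mean of eligible windows, 60.2%.

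This composition was shared with the other classes of peak. Intron peaks of genes of 50 kb or longer had 70.01% A+T at the summit, intergenic peaks within 5 kb of a start 70.4%, and peaks within 500 bp of a start 67.4%. Runs of 10 or more A or T, such as those in capitals at Kdm2 and CG11050, were present in 58.4% of the summit windows. The share was 62.7% at intron peaks of genes of 50 kb or longer and 60.1% at peaks within 500 bp of a start. Such runs were in 27.2% and 26.7% of the flanking windows and in 36.2% of eligible windows. In the replicates they were in 57.9% ± 2.60 of summit windows (SD, n = 3, exact sign-flip permutation p against eligible windows = 0.25). Read on the sense strand of the host gene, A made up 34.2% and T 34.9% of the summit windows, against 29.6% and 31.0% of eligible sequence, so both were more frequent.

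Known regulatory elements were searched as exact letters on both strands. The GAGA element (GAGAG) was in 170 summit windows (8%, 6.88 to 9.24) and in 11.0% of eligible windows, and in 18.3% and 16.2% of the flanks. In the replicates it was in 10.3%, 8.79% and 8.27%, which was 1.87 ± 1.04 percentage points under the eligible windows (SD, n = 3, exact sign-flip permutation p = 0.25). With eligible windows weighted to the A+T content of the peaks, the level was 7.12%, so the direction depended on the background, and the replicate mean was then 1.80 percentage points above it. With windows of 100 bp to each side the difference was -0.00099. The dip was narrow, since from 150 bp outward the share lay between 15.4% and 18.3% on both sides. The CA repeat (CACACACA) followed the same course, with 1.22% at the summit, 4.24% and 4.61% in the flanks and 2.69% in eligible windows. With eligible windows weighted to the A+T content of the peaks, its level was 1.27%, close to that at the summit.

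**Figure D5:**
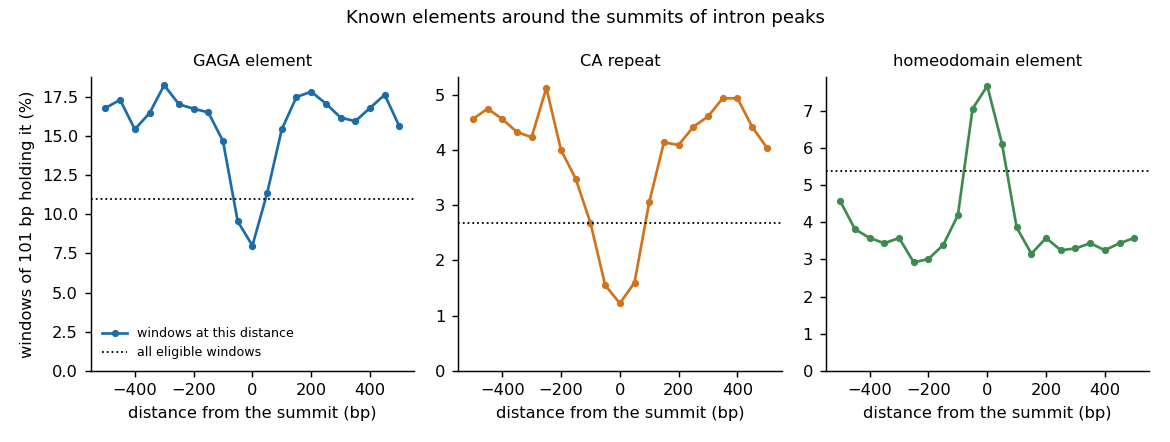
Share of windows of 101 bp that hold the GAGA element, the CA repeat or the homeodomain element (vertical axes from 0, percent) by distance of the window's centre from the summit of intron peaks. The dotted line is the share of all eligible windows; the GAGA element and the CA repeat are lowest at the summit, at 8% and 1.22%, and the homeodomain element is highest there, at 7.67%.

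The homeodomain element (TTAATTA) was in 163 windows (7.67%, 6.57 to 8.88), against 3.58% and 3.29% in the flanks, 5.38% of eligible windows and 8.63% after weighting to the same A+T content. The Mef2 element was in 31 (1.46%, 0.993 to 2.06), against 1.13% and 0.988% in the flanks, 0.997% of eligible windows and 1.59% after weighting. The A tract (AAAAAAAA) was in 171 (8.05%, 6.93 to 9.29), against 6.68% and 8.09% in the flanks, 7.03% of eligible windows and 11.1% after weighting. The intervals of the Mef2 element and the A tract include the level of eligible windows. These 3 shares were under their weighted levels. The forkhead element was in 76 (3.58%, 2.83 to 4.46), against 2.41% of eligible windows and 2.81% after weighting, and the GATA element in 44 (2.07%, 1.51 to 2.77), against 1.39% and 1.68%. The forkhead share in the replicates was 3.96% ± 0.758 and the GATA share 2.23% ± 0.459 (SD, n = 3, exact sign-flip permutation p = 0.25 for each against unweighted windows). The STAT element (TTCNNNGAA) was in 84 (3.95%, 3.17 to 4.87), against 3.13% and 3.62%. The intervals of the GATA and STAT elements include their weighted levels, and that of the forkhead element lies just above its weighted level.

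E-boxes and promoter elements were each in few of the summit windows. The E-box of twist, the mesoderm factor (CACATG), was in 83 windows (3.91%, 3.12 to 4.82), against 4.99% of eligible windows, and that of snail (CACCTG) in 33 (1.55%, 1.07 to 2.17), against 3.03%. After weighting these backgrounds were 3.35% and 1.51%. The BEAF-32 element (CGATAG), bound by an insulator protein of promoters, was in 33 (1.55%, 1.07 to 2.17), against 1.74%, and in 7.32% of peaks within 500 bp of a start. The DREF element (TATCGATA) and the M1BP element (GGTCACAC), of housekeeping promoters, were in 4 and 6 of the intron peaks, 0.188% and 0.282%. They were in 3.29% and 1.68% of the promoter peaks, in 0.177% and 0.137% of eligible windows, and in 0.236% and 0.0970% after weighting. The interval of the M1BP element, 0.104 to 0.614, included the unweighted level and lay above the weighted level. The element of Zelda (CAGGTAG), the factor that opens chromatin in the early embryo, was in 10 windows (0.471%, 0.226 to 0.864), against 0.433% of eligible windows. All 25 elements were searched, the long GAGA element (GAGAGAG) includes the short one, and the others not named were each in under 30 windows.

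Words of 6 bases were also ranked, without naming a factor, on arms 2L and X by their excess over eligible windows, and read on the other arms in 1345 windows, each with its reverse complement. Of the first 20 words, 18 held A and T alone. The highest, AATATT, was in 258 windows (19.2%), against 9.92% of eligible windows and 18.4% after weighting to the same A+T content. ATATTA was in 312 (23.2%), against 10.3% and 20.8% after weighting. AAATAT was in 491 (36.5%), against 20% and 34.8%. The highest word with a C or G, GTAATA, was in 8.33%, against 5.01% and 8.35%. TACTAA was in 7.73%, against 4.18% and 7.15%. CAAATA was in 17.9%, against 12.5% and 17.5%. The lowest word, GGCCAA, was in 3.27%, against 7.88% and 3.92% after weighting. TGGCCA was in 1.71%, against 5.69% and 2.75%. CAGCCA was in 2.83%, against 7.06% and 3.38%. Each of these 9 words was nearer to the weighted than to the unweighted level. A match is only a match of letters, and no binding by a factor follows from it or from its absence.

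The peaks were matched in the replicates about as often as all peaks. A summit of each of the 3 replicate lists, among its 8529 strongest peaks, lay within 100 bp for 1449 of the 2125 peaks (68.2%, 66.2 to 70.2), against 65.7% of all thresholded peaks. A match in 2 lists was found for 432, in 1 for 210 and in none for 34. For the 246 ranked in the first 1000, 19 of them in the first 100, matches were more complete, with 99.1% of those ranked up to 500. Of the 1099 ranked after 4000, 42.7% (39.7 to 45.7) were matched in all 3. The peaks of each list come from the same reads as the thresholded list, so this match is not an independent check.

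Against intron peaks of longer genes, the mean differences in matching and in signal were smaller than the SD over the replicates. The share matched, less that in genes of 50 kb or longer, was -0.43, 0.65 and -0.24 percentage points in replicates 1, 2 and 3. Its mean was -0.00704 ± 0.578 (SD, n = 3, exact sign-flip permutation p = 1), and its sign changed with the processing. The median signal was 0.978, 1.05 and 1.08 times that of the longer genes in replicates 1, 2 and 3, a mean of 1.04 ± 0.0521 (exact sign-flip permutation p = 0.5). Among the 4264 strongest peaks this ratio was 1.09 ± 0.0145 (exact sign-flip permutation p = 0.25), above 1 in 3 of 3 lists. The 500 strongest peaks held 112 of the 2125 and 33 of the 1063 intron peaks of longer genes, and the 100 strongest held 19 and 3. Of the 3223 peaks within 500 bp of a start, 270 were among the 500 strongest and 60 among the 100 strongest. Against the median of all peaks of the same list the median signal was 1.02, 1.01 and 1.01 times as high. The mean was 1.01 ± 0.00488 (exact sign-flip permutation p = 0.25). The set made up 22.4% of the 500 strongest peaks and 24.3% of those ranked after 4000, so it was spread over all ranks.

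The limits of the rule are positions, and the peaks nearest to each limit are named as examples only. The peak nearest inside the 500 bp limit lay 503 bp from a start of CG10543 and ranked 2237, and the nearest outside it, in an intron that otherwise qualified, lay 500 bp from a start of CG6891 and ranked 1014. By gene length, NetA, a guidance cue gene of 49917 bp, was the longest host. It held 6 peaks, the strongest at rank 471, and the example had rank 6235. Sytbeta, a synaptotagmin gene of 50283 bp, was the first beyond it, with a peak at rank 7027.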

How the data were processed

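Chromatin from 3 biological replicates, as the labels number them, was immunoprecipitated and sequenced. The authors deposited a peak list per replicate, a list on the replicates together and an IDR-thresholded list, on dm6, each called against control data per the deposited file listings. No aligner, caller or version is named in the labels or headers (not given in the sources used here). Every peak has a signal value and a −log10 q-value as the authors' caller wrote them. The scale of the signal is not stated, and the −log10 q-values stop at a top value, so signal alone ranked the peaks. Read depth is unknown.

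Summits were assigned with the Ensembl release 115 annotation of BDGP6, which has the dm6 arms, and sequence was read from the RefSeq assembly of dm6. The 8529 strongest peaks of each replicate list were used. Motifs were exact letters on both strands. The members and gene lists were chosen with earlier results of these data known. Of 685 entries in 23 lists, 28 were older symbols, matched to current ones by an alias table made after results were seen (25 of its aliases are RefSeq synonyms), 12 repeated a gene of their list, and 6 were left unmatched. Values over replicates are means with SD, and the exact two-sided sign-flip permutation test over 3 lists cannot give a p under 0.25. Intervals are exact (Clopper-Pearson or Poisson) at 95% and cover counting error only. Genes named were the hosts of the 25 strongest matched peaks, the 10 hosts with most peaks and those tied with them, the strongest peak of each arm, up to 3 hosts per list, and the genes at the limits. Other list genes, and the genes named as lacking a promoter peak, were chosen after their values were seen. Alternatives changed the promoter distance, the gene length limit, the list, merging, matching, window and flank. A weighted background, the first intron of the longest transcript, and all alternatives for gene density, A/T runs and promoter peaks of hosts were added after seeing the data. Scripts were tested on simulated data and used Python 3.11.15, numpy 2.4.6, pandas 2.3.3, scipy 1.17.1 and matplotlib 3.10.9.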

Additional observations from a re-analysis of the deposited data

How the results depend on the processing

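Among values recomputed under alternatives, 8 changed sign and 12 with no test moved beyond their error or, for counts, beyond 1.5 times. The other 103 kept their direction or, for counts and shares that have none, stayed within these limits. Those that kept their direction did not always keep their size. The promoter peak difference fell from 23.5 to 10.3 percentage points with a 200 bp limit and to 15.1 in the 4264 strongest peaks, the GAGA difference was -0.00099 with 100 bp to each side, and 1484 peaks qualified with a gene length limit of 30000 bp. No test could pass 0.05 under any of them. The match share less that of longer genes, near 0 throughout, became 1.10 percentage points with a gene length limit of 30000 bp, 0.147 with a doubled limit, 0.207 in the 4264 strongest peaks, 0.570 with overlapping peaks merged and 0.418 with matching within 200 bp, and lay between -0.336 and 0.205 when 1 replicate was left out. The share matched in all lists was 95.03% in the 4264 strongest peaks, 71.3% after merging, 52.6% within 50 bp, 73.4% within 200 bp and 90.7% against whole lists, and 73.6% to 77.5% matched both lists when 1 was left out. The host gene share was 10.4% with 30000 bp, 13.2% with the doubled limit and 8.28% in the 4264 strongest peaks, which held 1087 of the intron peaks. The GAGA difference became 1.80 percentage points with the weighted background. Apart from fewer peaks or other distances by construction, the cause was not tested. No paired analysis was possible because there is 1 group. Without read depth or control data, strength cannot be set against counting error.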

Other observations

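Pooled peaks that the authors' threshold left out also lay in these introns. By the same position rule, 6123 of 21471 such peaks (28.5%) qualified, with a median signal of 86.1. Of these, 1531 (25%) were matched in all 3 whole replicate lists, against 90.7% of the thresholded intron peaks. The matched share of all pooled peaks below the threshold is not given here, so 25% cannot be called particular to these introns. The 6123 peaks lay in 836 genes that held a thresholded intron peak and in 799 genes that held none, and 4269 (69.7%) lay in a first intron. Their summits had 62.3% A+T, with 58.9% in the lower-coordinate flank.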
